A study of Mus musculus with 12 samples.

Results

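The MHC class II genes were followed in whole mouse kidney as 7 of the 27179 genes of a table of RNA-seq expression values. They were found by their gene numbers, with no measured value in the rule: H2-Aa, H2-Ab1, H2-Eb1, H2-DMa, H2-DMb1, Cd74 and Ciita. All 7 were present in the table and all 7 passed the filter on low values. The data comprised 12 libraries, 3 in each of 4 groups: wild-type mice given saline, FAN1KO mice given saline, wild-type mice given cisplatin and FAN1KO mice given cisplatin. FAN1KO stands for γGT1-Cre;Fan1-/-, in which a Cre recombinase driven by the Ggt1 promoter deletes the DNA repair nuclease gene Fan1 in proximal tubule cells, so that the other cells of the kidney keep the gene. Cisplatin, a platinum drug that damages DNA, was injected intraperitoneally at 2 mg/kg once a week for 5 weeks, and the saline mice received saline injections. All mice were 8–12 weeks old and of a mixed strain background by their labels, while the methods of the study describe a backcross to 129Sv-Elite.

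MHC class II molecules are the cell-surface proteins that show peptides from engulfed or endocytosed material to CD4+ T cells. An alpha and a beta chain pair in the endoplasmic reticulum around the invariant chain, the product of Cd74, which guides them to endosomes and blocks the groove until proteases trim it to a short fragment. H2-DM, a related alpha-beta pair, then swaps that fragment for peptide. Dendritic cells, macrophages and B cells make class II constitutively, and interferon gamma can induce it in other cells, endothelium and tubule epithelium included. Ciita, the class II transactivator, is the co-activator that these genes share.

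Most of the genes lie together in the class II region. In the RefSeq annotation of GRCm38.p6, H2-DMa is at chr17:34119693-34139101, H2-DMb1 at chr17:34153191-34160229, H2-Ab1 at chr17:34263227-34269418, H2-Aa at chr17:34282744-34287823 and H2-Eb1 at chr17:34305867-34316674. Cd74 lies on a separate chromosome, and Ciita is at chr16:10480014-10531064. H2-DMa overlaps its neighbour Brd2 in that annotation, over chr17:34119693-34122814, and whether the reads were counted by strand is not given in the sources used here. H2-DMb1 and H2-DMb2 are similar copies side by side, so reads could be shared between them.

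Class II promoters are known for an X box, bound by the RFX complex, placed a fixed distance before a Y box, an inverted CCAAT motif bound by NF-Y, and Ciita docks on the assembled proteins. The promoters of 3 members in which such a pair was found are printed to show this shared layout, each as the 80 bases from 115 to 36 bases before the annotated start, 5′ to 3′ on the strand of the gene, from RefSeq on GRCm38.p6. The capitals mark GNAAC, a core of the X box, and ATTGG, the core of the Y box. The stretches are chr17:34287859-34287938 on the minus strand for H2-Aa, chr17:34305752-34305831 on the plus strand for H2-Eb1 and chr17:34153076-34153155 on the plus strand for H2-DMb1.
H2-Aa: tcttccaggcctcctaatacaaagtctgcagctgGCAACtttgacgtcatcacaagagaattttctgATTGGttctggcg
H2-Eb1: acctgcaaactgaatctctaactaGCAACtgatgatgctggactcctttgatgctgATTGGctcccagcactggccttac
H2-DMb1: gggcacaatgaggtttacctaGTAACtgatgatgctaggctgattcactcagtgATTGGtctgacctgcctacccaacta

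The motifs began 81 and 48 bases before the start in H2-Aa, 91 and 59 bases before it in H2-Eb1, and 94 and 61 bases before it in H2-DMb1. The stretch between them was 28 bases in H2-Aa and H2-DMb1 and 27 bases in H2-Eb1. The same pair with 25 to 28 bases between was present in the first 250 bases before the start of H2-Oa, H2-Ob and H2-Eb2, and was not matched in either listed window of H2-DMa or in that of H2-DMb2. The promoters of H2-Ab1, Cd74 and Ciita were not analysed here. Over all 32851 promoter windows of that length, 0.317% held the pair on the strand of the gene and 0.588% on either strand, against 55.2% with GNAAC and 19.7% with ATTGG alone on the strand of the gene. The spacing was chosen after these promoters had been read, so the shares are a description of the letters only.

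The expression values were TPM, a unit that divides the reads of a gene by its length and scales each library to the same total. Reads per library, recovered from the steps between low values, ran from 37202169 to 82947648. Behind the members stood 115 to 792 reads per library for Ciita, 169 to 1480 for H2-DMa and 3510 to 34256 for Cd74, so that counting error alone was at most 9.33% for Ciita and 1.69% for Cd74. Counting error was therefore small beside the spread between libraries of a group, which was 26.1% to 67.9% of the mean for H2-Ab1. The kidney tubule markers Slc34a1, Lrp2, Umod, Slc12a3 and Aqp2 were above 0 in all libraries, as the tissue label calls for, with lowest values of 837 TPM for Slc34a1 and 67.6 TPM for Lrp2. Fan1 itself ran from 1.98 to 3.80 TPM in wild-type saline, 1.17 to 2.28 in FAN1KO saline, 2.33 to 3.57 in wild-type cisplatin and 1.55 to 3.51 in FAN1KO cisplatin, so its level in whole kidney did not separate the genotypes and does not check the labels.

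A single library of each group held transcripts of the Y chromosome. The mean log2(TPM + 1) of Ddx3y, Eif2s3y, Kdm5d and Uty was 3.46 to 3.93 in wild-type saline replicate 3, FAN1KO saline replicate 1, wild-type cisplatin replicate 1 and FAN1KO cisplatin replicate 3, and at most 0.104 in the other 8 libraries. The study used male and female mice, and the labels do not give the sex of a library. Of the 28 pairs of a member and a group, 27 had their lowest value in the library with Y-linked transcripts, the exception being Ciita in FAN1KO cisplatin, where replicate 2 was lowest. That library was the lowest of all 4 groups for 6211 of the 14972 genes tested, or 41.5%. The results below are therefore given with and without those 4 libraries where that matters.

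The alpha chain gene of the I-A molecule, H2-Aa, measured 137, 167 and 67.2 TPM in wild-type saline and 47.4, 197 and 126 TPM in FAN1KO saline. Under cisplatin it measured 92.5, 337 and 283 TPM in wild-type and 616, 320.0 and 222 TPM in FAN1KO kidneys. The FAN1KO cisplatin libraries were all above the FAN1KO saline libraries, while the wild-type cisplatin values overlapped those of every other group. The beta chain gene H2-Ab1, its partner, measured 252, 328 and 194 TPM in wild-type saline, 69.1, 353 and 205 TPM in FAN1KO saline, 139, 509 and 456 TPM in wild-type cisplatin and 841, 505 and 443 TPM in FAN1KO cisplatin. Its lowest value of all 12 was FAN1KO saline replicate 1 and its highest was FAN1KO cisplatin replicate 1. H2-Eb1, the beta chain gene of the I-E molecule, measured 97.5, 139 and 60.4 TPM in wild-type saline, 45.3, 172 and 121 TPM in FAN1KO saline, 69.9, 285 and 250.3 TPM in wild-type cisplatin and 576, 293 and 208 TPM in FAN1KO cisplatin. The order of the libraries was the one seen for H2-Aa within each group.

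The I-E alpha chain gene was all but absent. H2-Ea, annotated in the reference genome as a transcribed pseudogene, was listed at 0 in 10 of 12 libraries and at 0.0405 and 0.0677 TPM in the other two. H2-Eb2, a further beta chain gene, stayed between 0 and 0.237 TPM. Neither passed the filter, so neither was tested.

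Cd74, which encodes the invariant chain, was the most abundant member. It measured 362, 419.7 and 199 TPM in wild-type saline, 84.9, 425 and 248 TPM in FAN1KO saline, 213, 754 and 628 TPM in wild-type cisplatin and 1157, 755 and 557 TPM in FAN1KO cisplatin. On average over the 12 libraries, 98.9% of the genes above 0 had a lower mean than Cd74. The order of mean TPM over the libraries was Cd74 at 484, H2-Ab1 at 358, H2-Aa at 218, H2-Eb1 at 193, H2-DMb1 at 43.6, H2-DMa at 35.1 and Ciita at 2.56.

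The genes of the peptide exchanger were expressed at a lower level. H2-DMa measured 24.0, 27.9 and 14.5 TPM in wild-type saline, 7.41, 34.25 and 20.1 TPM in FAN1KO saline, 12.5, 45.7 and 46.9 TPM in wild-type cisplatin and 90.6, 52.0 and 45.2 TPM in FAN1KO cisplatin. H2-DMb1 measured 38.1, 45.2 and 21.3 TPM in wild-type saline, 12.96, 39.5 and 31.3 TPM in FAN1KO saline, 15.9, 51.1 and 51.8 TPM in wild-type cisplatin and 94.3, 68.7 and 53.5 TPM in FAN1KO cisplatin. H2-DMb1 was the only member whose FAN1KO cisplatin libraries all exceeded the wild-type cisplatin libraries. Ciita, the transactivator, measured 1.37, 2.22 and 1.10 TPM in wild-type saline, 0.692, 2.25 and 1.31 TPM in FAN1KO saline, 1.14, 3.97 and 3.26 TPM in wild-type cisplatin and 6.65, 3.20 and 3.57 TPM in FAN1KO cisplatin.

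**Figure D1:**
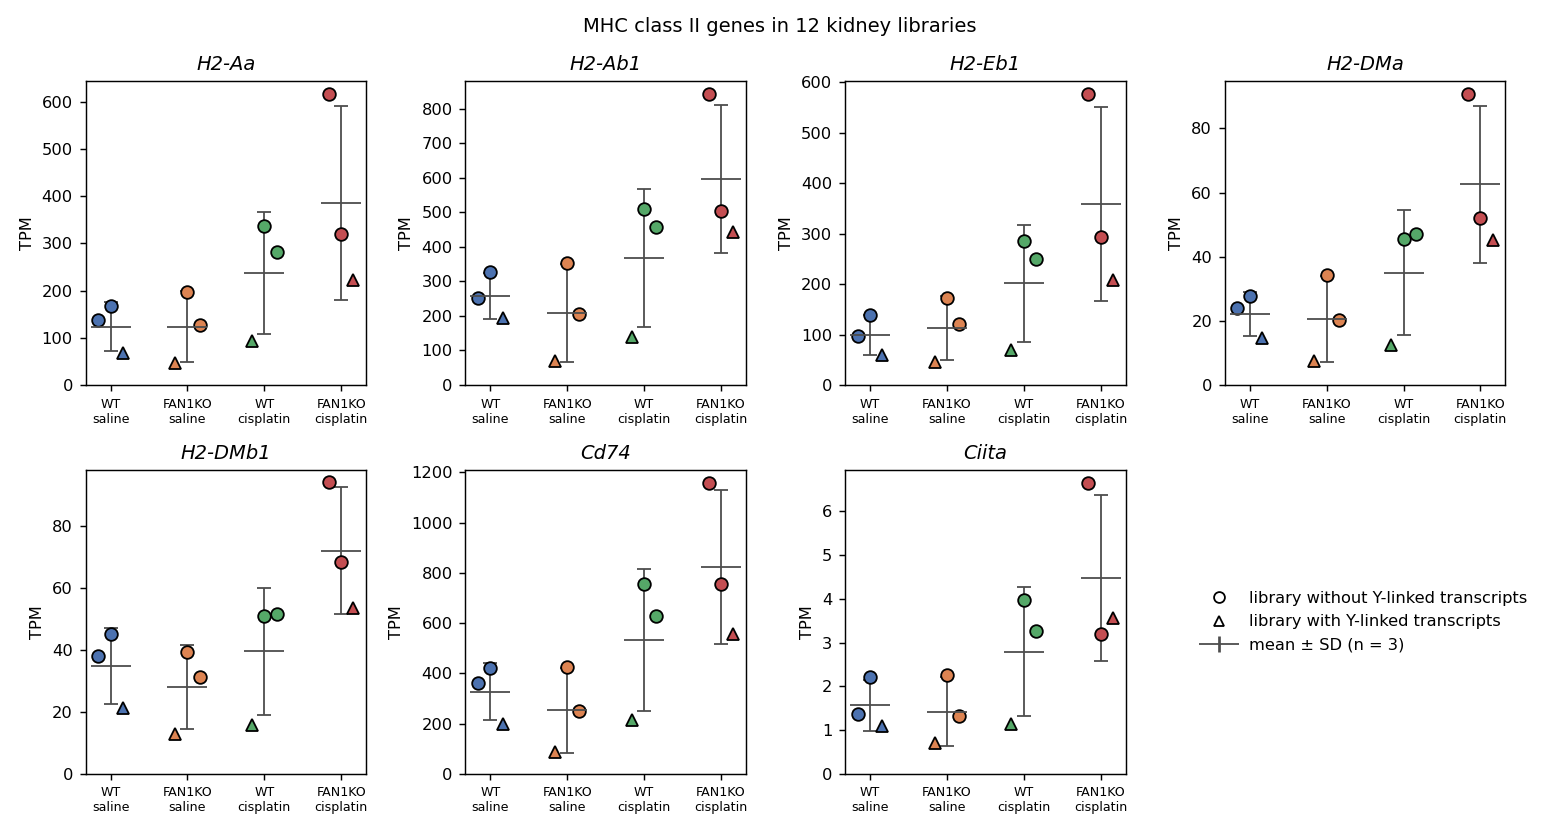
TPM of the 7 MHC class II genes (vertical axes, linear from 0) in the 12 libraries, by group, with mean ± SD (n = 3). Triangles mark the 4 libraries with Y-linked transcripts, which hold the lowest value of their group in 27 of 28 cases, and each gene has its highest value in FAN1KO cisplatin replicate 1.

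All 7 genes had their highest group mean in FAN1KO cisplatin, followed by wild-type cisplatin. The 2 saline groups came last, with FAN1KO saline the lowest for 6 of 7 genes and wild-type saline the lowest for H2-Eb1. For Cd74 the means were 823 ± 306 TPM in FAN1KO cisplatin, 532 ± 283 TPM in wild-type cisplatin, 327 ± 114 TPM in wild-type saline and 253 ± 169.9 TPM in FAN1KO saline (SD, n = 3). Of the 21 pairs of groups that were neighbours in such an order, 20 overlapped in their libraries, so most steps of the order were within the spread between mice. The exception was H2-DMb1 between FAN1KO cisplatin, at 72.2 ± 20.6 TPM, and wild-type cisplatin, at 39.6 ± 20.6 TPM (SD, n = 3).

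To ask what cisplatin did to class II expression in kidneys whose proximal tubules lacked Fan1, the cisplatin and saline libraries of FAN1KO mice were compared. All 7 genes rose, and none of their libraries overlapped between treatments. On the log2(TPM + 1) scale the differences were 1.73 for H2-Aa, 1.73 for H2-Ab1, 1.73 for H2-Eb1, 1.72 for H2-DMa, 1.44 for H2-DMb1, 1.91 for Cd74 and 1.18 for Ciita. The ratios of mean TPM were 2.58 for H2-DMb1 at the lowest and 3.26 for Cd74 at the highest. With limma and Benjamini-Hochberg adjustment over 14972 genes, the adjusted p ran from 0.0274 for Ciita and 0.0302 for Cd74 to 0.0491 for H2-Eb1 and 0.0495 for H2-Aa. The 95% interval of the difference was 0.56 to 3.27 for Cd74 and 0.34 to 3.12 for H2-Aa.

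This stood against a broad change of the kidney transcriptome. Of all genes tested in that comparison, 34.9% were called higher, 39.8% were called in either direction and 47.4% had higher libraries without overlap. The median difference over all genes was 0.369, and relative to it the members lay 0.81 to 1.55 higher on the log2 scale, with a median of 1.36. With 3 libraries against 3, the exact two-sided permutation test of a single gene cannot give a p below 0.1, which was its value for each of the 7.

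The calls were close to the threshold. Of the 7 genes, 2 were called with no filter on low values and 1, Cd74, after scaling by median-ratio size factors, under which the members' differences were 0.88 to 1.48. Under that scaling fewer of all genes were called higher too, and the share of the members called, 1 of 7, was not above the share of all genes called higher. No member was called without FAN1KO saline replicate 1, without FAN1KO saline replicate 3 or without FAN1KO cisplatin replicate 1, and 1 was called without FAN1KO cisplatin replicate 2. Calls over all genes fell as well without FAN1KO cisplatin replicate 1, from 5962 to 3622 of 14972. With no filter, and without each of the other libraries just named, they moved at most 1.5-fold. In the 8 libraries without Y-linked transcripts, an alternative chosen after seeing the data, all 7 were called higher, beside 44.4% of all genes, with differences of 1.05 for Ciita to 1.52 for Cd74 and adjusted p (limma) of 0.00174 to 0.0280.

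In wild-type kidneys the same treatment gave differences of 0.83 for H2-Aa, 0.34 for H2-Ab1, 0.86 for H2-Eb1, 0.48 for H2-DMa, 0.07 for H2-DMb1, 0.58 for Cd74 and 0.50 for Ciita on the log2(TPM + 1) scale. None of the 7 was called by limma, none had an unadjusted p under 0.05, and voom, which models the recovered reads, called none. In the same comparison 0.0601% of all genes were called, which was 9 genes. The 95% interval was −0.78 to 1.93 for Cd74 and −1.05 to 1.19 for H2-DMb1. For Cd74 the difference of 1.91 seen in FAN1KO kidneys lay just within the interval. For H2-DMb1 the difference seen in FAN1KO kidneys lay above it, but that difference has an error of its own. The interaction term, given below, compares the genotypes and was not called for H2-DMb1 in the main fit. Wild-type cisplatin replicates 2 and 3 stood above all wild-type saline libraries for each gene, and replicate 1, the library with Y-linked transcripts, stood among or below them. Without the 4 libraries with Y-linked transcripts the differences were 0.30 for H2-DMb1 to 1.19 for H2-Eb1, and none was called.

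These comparisons share libraries, so they are not independent of each other. To ask whether loss of Fan1 changed class II expression under cisplatin, FAN1KO and wild-type libraries were compared. The mean TPM of the members was 1.55 to 1.82 times higher in FAN1KO, and the log2(TPM + 1) differences were 0.56 for Ciita, 0.75 for Cd74, 0.77 for H2-Aa, 0.85 for H2-Ab1, 0.93 for H2-Eb1, 0.96 for H2-DMa and 0.99 for H2-DMb1. None of the 7 was called by limma, against 19.6% of all genes called higher and 23.9% in either direction. None had an unadjusted p under 0.05, and voom called none. H2-DMb1 came closest, with a 95% interval of −0.14 to 2.11, an adjusted p (limma) of 0.179 and an exact two-sided permutation p of 0.1, the smallest possible. Libraries without overlap and higher in FAN1KO were seen for 35.7% of all genes and for that 1 member.

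The count depended on the Y-linked level. With the mean Y-linked level as a covariate in limma, 5 of the 7 were called higher, beside 40.3% of all genes: H2-Aa at 0.81 with adjusted p 0.0281, H2-Eb1 at 0.97 with 0.0183, H2-DMa at 1.00 with 0.0213, H2-DMb1 at 1.021 with 0.00330 and Cd74 at 0.79 with 0.0413. In the 8 libraries without Y-linked transcripts 1 was called higher, beside 28.9% of all genes, H2-DMb1, at 0.64 with adjusted p 0.0282 (limma).

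Genotype was also compared in the saline mice, where no member was called. The log2(TPM + 1) differences of FAN1KO against wild-type were −0.58 for Cd74, −0.55 for H2-Ab1, −0.38 for H2-DMb1, −0.28 for H2-DMa, −0.13 for H2-Aa, −0.11 for Ciita and 0.07 for H2-Eb1. limma called 0.768% of all genes and 0 of the 7, none had an unadjusted p under 0.05 and voom called none. The 95% interval for Cd74 was −1.94 to 0.77. Within FAN1KO saline, H2-Ab1 differed 5.11-fold between its highest and lowest library and Cd74 5.00-fold, the lowest again being replicate 1 with Y-linked transcripts.

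The interaction term, which tests whether cisplatin acted differently in the 2 genotypes, was 0.67 for Ciita to 1.40 for H2-Ab1 on the log2 scale. None of the 7 was called by limma or voom, none had an unadjusted p under 0.05, and 6.24% of all genes were called. The 95% interval was −0.58 to 3.25 for Cd74 and −0.22 to 2.96 for H2-DMb1. The rise that passed the test in FAN1KO and not in wild-type kidneys was therefore not shown to differ between them. With the Y-linked covariate, H2-DMb1 at 1.37 (adjusted p 0.00839, limma) and Cd74 at 1.34 (adjusted p 0.0302, limma) were called, which is 2 of 7 beside 31.6% of all genes in that fit.

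**Figure D2:**
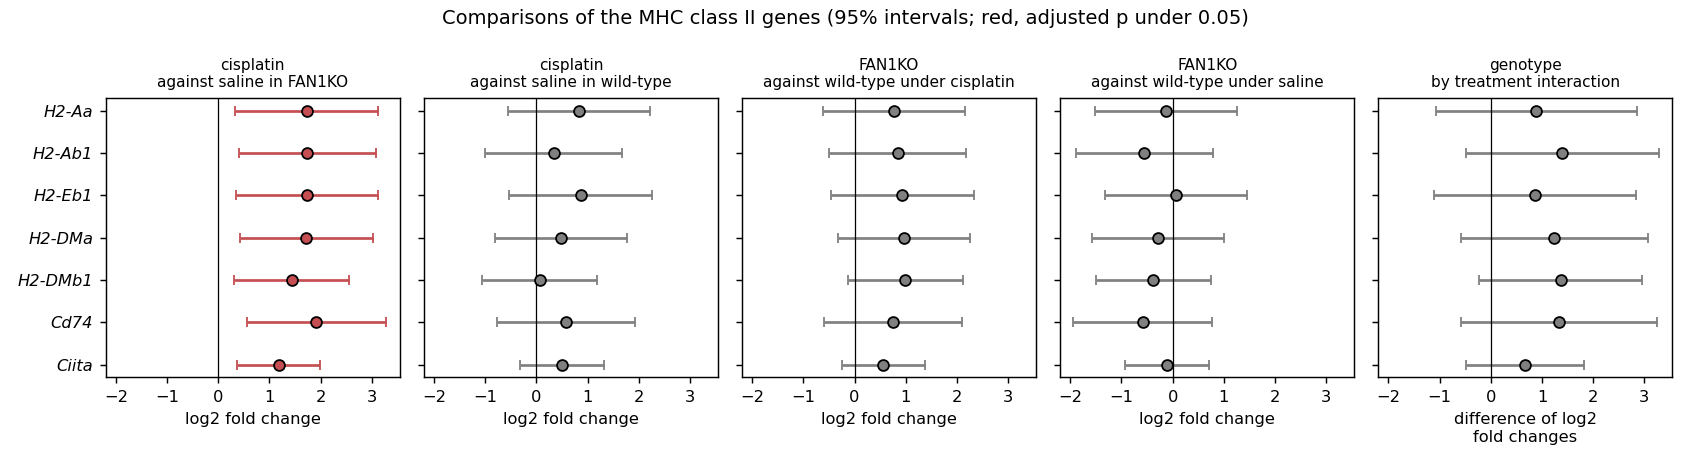
Differences in log2(TPM + 1) of the 7 genes in the 4 comparisons of groups and in the interaction (horizontal axes), with 95% intervals from limma. The intervals lie above 0 for all 7 genes only for cisplatin against saline in FAN1KO kidneys, where the points run from 1.18 to 1.91.

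The members rose and fell together from library to library. Over the 12 libraries, Pearson's r between any pair of the 7 was 0.92 to 0.99 with a median of 0.965, and after each group's mean was removed it was 0.91 to 0.99. These are correlations over libraries that also share their treatment, depth and cell content, and carry no test. The ratio of Cd74 to H2-Ab1 was 1.25 ± 0.207 in wild-type saline, 1.21 ± 0.0138 in FAN1KO saline, 1.47 ± 0.0806 in wild-type cisplatin and 1.38 ± 0.119 in FAN1KO cisplatin (SD, n = 3), while the level of H2-Ab1 varied 12.2-fold over the libraries. The ratio of H2-Ab1 to Ciita, both per length, was 99.96 to 184 in all 12.

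Among the genes outside the 7, those with the most similar pattern over the 12 libraries, by r with the mean z-score of the members other than Ciita, were Ubtd2 at 0.994, Nav1 at 0.988, Cracr2b at 0.988, C1ra at 0.986, Nfkb1 at 0.985, Arhgdib at 0.985, Hoxb4 at 0.983 and Ip6k1 at 0.983. By deviations from the group means they were Nxn at 0.993, Psmb8 at 0.992, Ubtd2 at 0.991, Pltp at 0.990, Smc3 at 0.989, Gm15753 at 0.989, Gm10335 at 0.988 and Nap1l4 at 0.988. C1ra encodes a complement protease, Nfkb1 a subunit of NF-κB and Psmb8 a catalytic subunit of the immunoproteasome. Only Ubtd2 was in both lists.

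Levels in whole kidney cannot tell more class II-bearing cells from more transcript per cell, so markers of immune cells were measured beside the members. In FAN1KO kidneys under cisplatin against saline, 12 of 28 tested markers of leukocytes, macrophages, dendritic cells, B cells and T cells rose and none fell, with a median difference of 0.80, a share of 42.9% beside 34.9% of all genes. Of 12 macrophage and monocyte markers 8 rose, among them Cd68, a lysosomal protein of macrophages, by 2.47, Lyz2, their lysozyme, by 2.37, C1qa, a complement C1q chain, by 2.23 and Cx3cr1, the fractalkine receptor, by 2.15 on the log2 scale. The other 4 were not called, and the lowest difference of the 12 was 0.089. Csf1r, 1 of those not called, averaged 26.3 TPM in FAN1KO cisplatin and 26.5 TPM in FAN1KO saline. Of 3 general leukocyte markers Laptm5 and Coro1a rose, of 5 dendritic cell markers tested Itgax rose, of 2 B cell markers tested Cd79b rose, and of 6 T cell markers none was called. Of the macrophage and monocyte markers 3 were called without FAN1KO cisplatin replicate 1 and 4 without FAN1KO saline replicate 1. As given above, calls over all genes fell as well without FAN1KO cisplatin replicate 1 and moved less without FAN1KO saline replicate 1. In the 8 libraries without Y-linked transcripts 7 of these markers were called, beside 44.4% of all genes called higher. In wild-type kidneys none of the 28 was called, and 4 were higher in FAN1KO than in wild-type kidneys under cisplatin, namely Cd68 by 1.56, Cx3cr1 by 1.57, Cd209a by 1.38 and Cd8a by 0.87. That share, 14.3%, was below the 19.6% of all genes called higher, and each of the 4 lost its call under at least 1 alternative.

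The summed macrophage and monocyte markers were 79.9 to 145 TPM in wild-type saline, 56.6 to 154 TPM in FAN1KO saline, 84.0 to 279 TPM in wild-type cisplatin and 238 to 630.1 TPM in FAN1KO cisplatin. The sum of the 3 leukocyte markers was 11.8 to 25.4, 12.2 to 32.1, 19.0 to 53.4 and 44.7 to 119 TPM in the same order of groups. Both sums were highest in FAN1KO cisplatin replicate 1, as every member was. The 8 dendritic cell markers summed to 2.53 to 25.8 TPM over the 12 libraries and the 6 T cell markers to 4.06 to 20.9 TPM. The 6 B cell markers summed to 1.06 to 9.10 TPM, with Ms4a1, which encodes CD20, listed at 0 in 2 libraries.

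Against these markers the class II level was not constant. The ratio of H2-Ab1 to Coro1a, an actin regulator of leukocytes, was 30.7 ± 3.57 in wild-type saline, 16.7 ± 5.57 in FAN1KO saline, 17.0 ± 1.59 in wild-type cisplatin and 16.01 ± 2.90 in FAN1KO cisplatin (SD, n = 3), and only the wild-type saline libraries stood apart from the rest. The ratio of H2-Ab1 to C1qa was 17.0 ± 1.72, 9.56 ± 2.95, 13.2 ± 2.05 and 6.42 ± 1.57 in that order. To Ptprc, a general leukocyte marker, the ratio of H2-Ab1 was 153 ± 22.6, 78.5 ± 29.8, 108 ± 21.7 and 129 ± 11.0. In FAN1KO kidneys that ratio ran from 53.0 to 111 under saline and from 120 to 141 under cisplatin. It was thus higher with cisplatin there, where the ratios to Coro1a and C1qa were not. Endothelial markers (Pecam1, Cdh5, Kdr and Emcn), by contrast, summed to 33.9 to 153 TPM in FAN1KO saline and 18.2 to 64.1 TPM in FAN1KO cisplatin, and Kdr fell by 1.99 on the log2 scale (adjusted p 0.0466, limma). The tubule injury markers Havcr1, Lcn2 and Krt20 rose in that comparison, by 5.65, 7.72 and 6.42, and the proximal tubule genes Slc34a1 and Lrp2 fell by 1.59 and 1.49, while Aqp2, the collecting duct water channel, rose by 1.79. The part of any of these cell types in the class II levels was not tested.

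**Figure D3:**
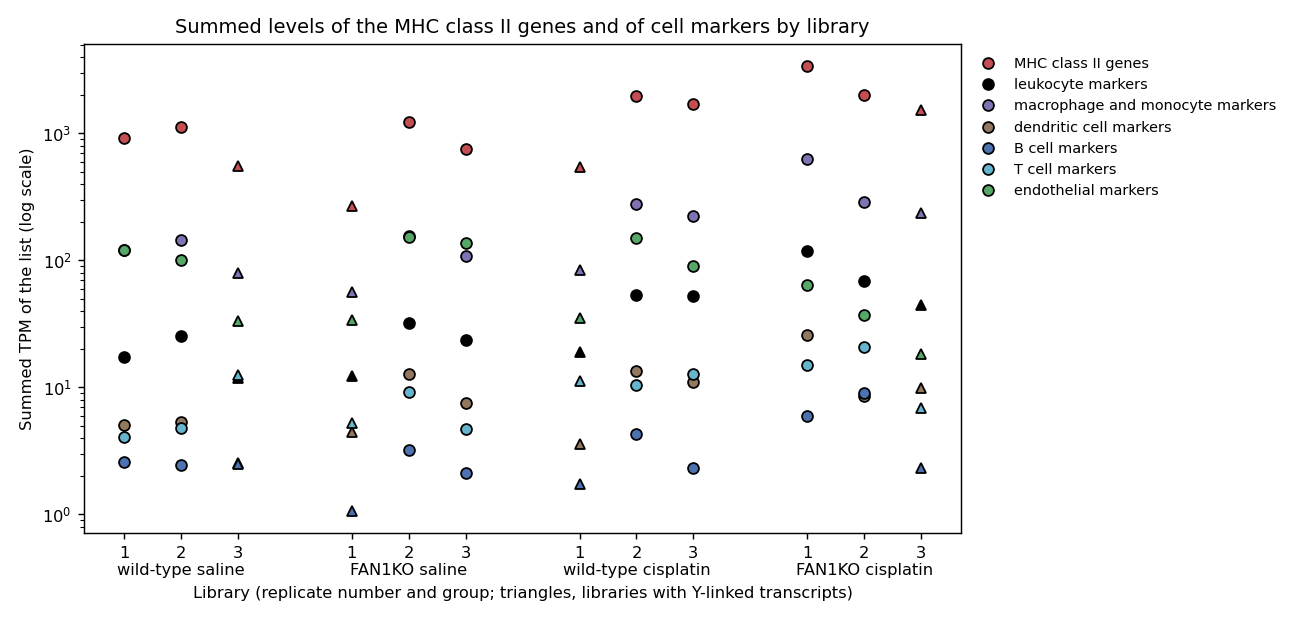
Summed TPM of the 7 class II genes and of 6 marker lists (vertical axis, log scale) in each library, with triangles for the 4 libraries with Y-linked transcripts. The class II sum runs from 268 TPM in FAN1KO saline replicate 1 to 3381 TPM in FAN1KO cisplatin replicate 1, the same libraries in which the macrophage and monocyte sum is lowest, at 56.6 TPM, and highest, at 630.1 TPM.

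The wider pathway was described by 40 other genes, of which 35 passed the filter. In FAN1KO kidneys under cisplatin against saline, 15 of the 35 rose and 1 fell, with a median difference of 0.65. The share that rose was 42.9%, beside 34.9% of all genes. In wild-type kidneys under cisplatin and between genotypes under saline none of the 35 was called. Under cisplatin, FAN1KO against wild-type, 7 were higher and 2 lower, with a median of 0.47, and the share called higher, 20%, was near the 19.6% of all genes.

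Of the peptide loading genes outside the 7, H2-DMb2, a second H2-DM beta chain, rose by 2.43 in FAN1KO kidneys with cisplatin, from 1.09 to 7.08 TPM in the saline libraries to 16.6 to 38.9 TPM (adjusted p 0.0130, limma). It was not called without FAN1KO saline replicate 1 or without FAN1KO cisplatin replicate 1. The other two genes of that group, which encode the H2-DO modulator, were not called in any comparison and had differences of 0.19 and 0.68 in this one.

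Of the 7 factors tested that assemble on class II promoters, 2 were called higher in FAN1KO kidneys with cisplatin, beside 34.9% of all genes. Rfx5, a subunit of the RFX complex, rose by 0.89 (adjusted p 0.0104, limma) and Nfyb, a subunit of NF-Y, by 0.65 (adjusted p 0.0301, limma). Rfx5 measured 2.75, 3.01 and 3.47 TPM in FAN1KO saline and 8.07, 6.76 and 5.09 TPM in FAN1KO cisplatin. Nfya, another NF-Y subunit, was lower in FAN1KO than in wild-type kidneys under cisplatin, by −0.49 (adjusted p 0.0218, limma), at 11.1 to 15.3 TPM against 17.9 to 18.6 TPM. The differences of the 7 in FAN1KO kidneys with cisplatin ran from −0.04 to 0.89, around a median of 0.33.

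In the interferon gamma axis both receptor genes were called in each of the comparisons that involve FAN1KO cisplatin. Ifngr1, the ligand-binding chain, measured 16.8, 24.7 and 23.3 TPM in FAN1KO saline and 88.5, 62.6 and 80.1 TPM in FAN1KO cisplatin, against 20.1, 31.9 and 26.4 TPM in wild-type cisplatin. It rose by 1.79 with cisplatin in FAN1KO kidneys (adjusted p 0.000199, limma) and was 1.53 higher than in wild-type kidneys under cisplatin (adjusted p 0.000892, limma). Ifngr2, the signalling chain, rose by 1.63 and was 1.07 higher than in wild-type. Irf1 and Irf2, transcription factors of the interferon response, rose by 1.79 and 0.61 with cisplatin in FAN1KO kidneys, and the kinase gene Jak1 was 0.47 higher in FAN1KO than in wild-type kidneys under cisplatin. The ligand gene Ifng ran from 0 to 0.238 TPM and was not tested, and the other 4 genes of the axis were not called in any comparison.

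Of the 7 genes tested that process antigen and the invariant chain, 4 rose in FAN1KO kidneys with cisplatin and 3 were not called. Over all genes 34.9% were called higher. Ctss, the cathepsin known for the last cut of the invariant chain in immune cells, measured 5.56, 19.2 and 13.3 TPM in FAN1KO saline and 83.0, 31.6 and 24.7 TPM in FAN1KO cisplatin, a rise of 1.74 (adjusted p 0.0448, limma). Ctsl, a cathepsin also expressed in epithelium, rose by 0.72, Ctsd, an aspartic protease of lysosomes, by 1.61 and Ifi30, the lysosomal thiol reductase, by 1.13. Under cisplatin Ctsl was 1.009, Ctsd 1.63, Ifi30 0.64 and the cathepsin gene Ctsb 0.48 higher in FAN1KO than in wild-type kidneys, of which Ctsl and Ctsd were called under all alternatives. Ctsd measured 2345, 1868 and 1476 TPM in FAN1KO cisplatin and 539 to 687 TPM in the other 9 libraries. It exceeded Cd74 in each library of FAN1KO cisplatin and of both saline groups, but not throughout wild-type cisplatin, where Cd74 reached 754 TPM.

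Marchf8, a ubiquitin ligase that can remove class II from the surface, was lower in FAN1KO cisplatin than in FAN1KO saline, by −0.28 (adjusted p 0.0171, limma), and than in wild-type cisplatin, by −0.32 (adjusted p 0.0181, limma). It measured 68.3, 65.6 and 74.0 TPM there and 79.5 to 89.6 TPM in the other 9 libraries. Neither of the 2 costimulatory genes tested was called in any comparison.

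Of the 5 neighbours of the class II genes tested, 4 rose in FAN1KO kidneys with cisplatin, beside 34.9% of all genes. The other, Psmb9, was not called at 1.34 (adjusted p 0.0673, limma). In FAN1KO kidneys with cisplatin the peptide transporter genes Tap1 and Tap2, which serve class I, rose by 2.14 (adjusted p 0.00421, limma) and 1.70 (adjusted p 0.00325, limma), Psmb8 by 2.16 (adjusted p 0.0113, limma) and Brd2, a chromatin reader, by 0.88 (adjusted p 0.00522, limma). Tap1 measured 2.74, 8.54 and 8.09 TPM in FAN1KO saline and 40.8, 37.8 and 16.01 TPM in FAN1KO cisplatin. Between genotypes under cisplatin limma called no neighbour, beside 19.6% of all genes called higher, while voom called 3 neighbours. The share of all genes called by voom is not given here, so no reading is drawn from those 3. In the 8 libraries without Y-linked transcripts all 5 tested were called higher in that comparison, beside 28.9% of all genes.

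**Figure D4:**
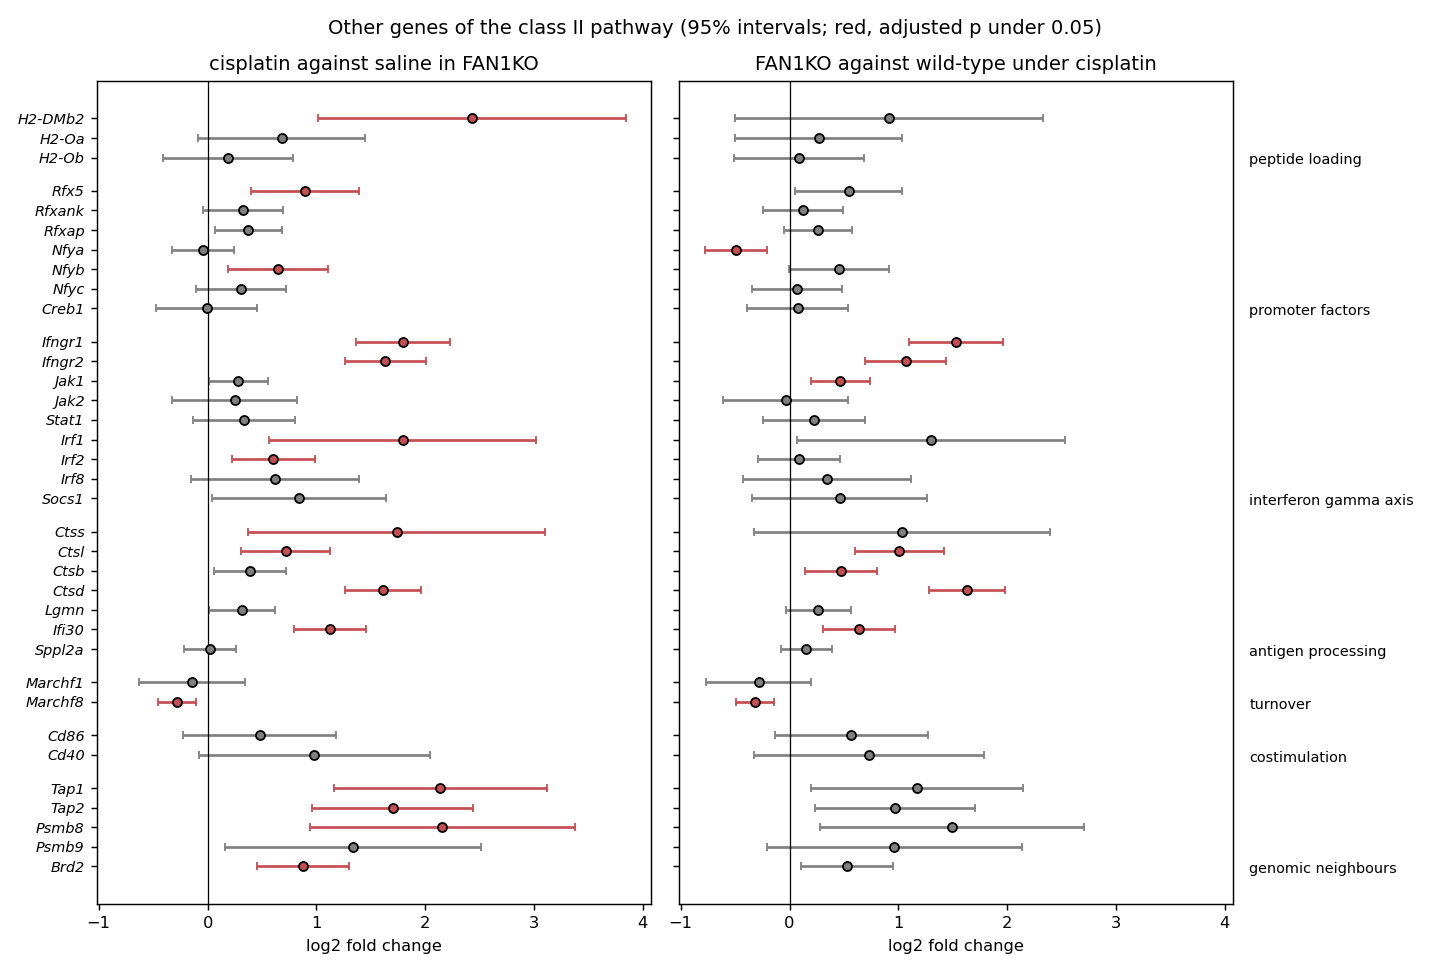
Differences in log2(TPM + 1) with 95% intervals (limma) for the 35 tested genes of the class II pathway and its neighbourhood, by role, for cisplatin against saline in FAN1KO kidneys (left) and FAN1KO against wild-type under cisplatin (right). Red points passed the adjusted threshold of 0.05: 16 genes on the left and 9 on the right.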

How the data were processed

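RNA of 12 kidneys was sequenced, and the authors deposited the values as TPM in 1 table of 27179 genes by NCBI Gene number. The processing notes of the submitters name mm10 and limma, and the aligner and annotation are not given in the sources used here. Groups and replicate numbers came from the labels, which give each mouse its own number, and 0 columns were left out. RefSeq (GRCm38.p6) named 25275 of the genes and gave coordinates and promoter sequences.

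Testing was restricted to the 14972 genes that reached a TPM of 1 in 3 or more libraries. All 12 libraries entered 1 limma model (version 3.58.1, R 4.3.3) of log2(TPM + 1) with the 4 groups as terms and a mean-variance trend, with Benjamini-Hochberg adjustment over all genes and a threshold of 0.05. A fold on this scale understates changes of low genes. Single genes were also compared by an exact two-sided permutation test of mean log2(TPM + 1). On simulated data limma recovered 188 of 196 genes changed 2-fold in FAN1KO cisplatin among 13969 genes, and called 18 unchanged genes. The simulation set a smaller spread between libraries than the members showed, and changed as many genes up as down. It therefore does not measure the power to call the members.

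Steps between TPM gave whole reads for 232991 of 232991 values above 0, and for 1 of 300 genes after their values were moved at random. A read in a gene of 1 kilobase was worth 0.0200 to 0.0478 TPM. Counting errors do not cover the spread between mice.

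The members, lists and tests were chosen with earlier results of these data known. Named are the 7 members, pathway and marker genes called in at least 1 comparison, and the 8 most similar genes by each of 2 correlations. Fan1, the Y-linked and kidney markers, H2-Ea, H2-Eb2, H2-Oa, H2-Ob, Ifng, Psmb9, Ms4a1, Ptprc and Csf1r were named outside that rule after their values were seen. Alternatives were another pseudocount, other filters, median-ratio scaling, a replicate block, a Y-linked covariate, no trend, voom on the recovered reads, the compared libraries alone and leaving out each library. The use of only the 8 libraries without Y-linked transcripts was added after seeing the data. A further marker of the kidney list is not reported here.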

Additional observations from a re-analysis of the deposited data

Results flagged for a closer look

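No class II gene was singled out by the checks for outlying samples or for effects that differ between groups, since groups of 3 are not tested for outliers and no interaction term of the 7 passed. Of the 35 tested genes of the wider pathway, 4 had a cisplatin effect that differed between the genotypes by limma's interaction term. That share was 11.4%, beside 6.24% of all genes. The difference of the log2 effects, FAN1KO minus wild-type, was 1.46 for Ifngr1 (adjusted p 0.0184), 1.28 for Ifngr2 (adjusted p 0.0169), 1.47 for Ctsd (adjusted p 0.0109) and 0.951 for Ifi30 (adjusted p 0.0300). In all 4, every FAN1KO cisplatin library was higher than every other library, a pattern that was not counted over all genes. Over all alternatives the adjusted p stayed at or under 0.0497 for Ifngr2 and 0.0437 for Ctsd, and reached 0.0529 for Ifngr1 and 0.239 for Ifi30.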

How the results depend on the processing

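Of the fitted differences of the 7 genes under the alternatives, 515 kept their direction and their side of the threshold, 48 lost their call, 8 gained one and 19 changed sign. For cisplatin against saline in FAN1KO kidneys, 7 members were called, 2 with no filter, 1 with median-ratio scaling and 0 to 7 when a library was left out. It was 0 without FAN1KO saline replicate 1 or 3 or FAN1KO cisplatin replicate 1, and 1 without FAN1KO cisplatin replicate 2. The differences of all 7 stayed above 0 under every alternative run in that comparison. FAN1KO against wild-type under cisplatin gave 0, but 5 with the Y-linked covariate and 1 in the 8 libraries without Y-linked transcripts. The interaction gave 0, but 2 with that covariate. With replicate number as a block 5 members were called in FAN1KO kidneys and 0 in each other comparison. For all of these counts, calls over all genes are given below where they moved more than 1.5-fold. For cisplatin in FAN1KO kidneys they did not do so with the block. Libraries of the same number correlated at 0.0180 on average (−0.607 to 0.761) against 0.0151 for different numbers. These averages showed no pairing of the mice by number, and with so wide a range they cannot exclude one. Among the 16 pathway genes called in FAN1KO kidneys with cisplatin, Nfyb, Irf1, Irf2, Ctss, Ctsl, Psmb8, H2-DMb2 and Marchf8 lost their call under at least 1 alternative, while Ifngr1, Ifngr2, Ctsd, Ifi30, Rfx5, Tap1, Tap2 and Brd2 were called under all. Of the 9 called in FAN1KO against wild-type under cisplatin, Nfya, Jak1, Ctsb, Ifi30 and Marchf8 lost their call under at least 1 alternative, with highest adjusted p (limma) of 0.0796, 0.390, 0.215, 0.241 and 0.0750. The cause of these changes was not tested.

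Signs changed in the saline and wild-type comparisons. Under saline, H2-Aa was 0.056 and H2-DMa 0.022 in the 8 libraries. Leaving out a library gave −1.10 to 0.059 for Cd74, −0.349 to 0.122 for Ciita, −0.572 to 0.444 for H2-Aa, −1.07 to 0.096 for H2-Ab1, −0.748 to 0.285 for H2-DMa, −0.690 to 0.079 for H2-DMb1 and −0.334 to 0.617 for H2-Eb1. In wild-type kidneys with cisplatin, H2-DMb1 was −0.028 with median-ratio scaling and −0.0035 with voom, and leaving out a library gave −0.242 to 0.614 for it and −0.00071 to 0.932 for H2-Ab1.

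Calls over all genes moved more than 1.5-fold as follows. FAN1KO against wild-type under cisplatin had 3585, against 7323 with the covariate, 2175 in the 6 compared libraries, 5490 in the 8 and 1539 at the fewest with a library left out. Cisplatin in FAN1KO kidneys had 5962, against 9141 with the covariate and 3622 without FAN1KO cisplatin replicate 1. FAN1KO against wild-type under saline had 115, against 72 with no filter, 61 with the block, 421 with the covariate, 27 in the 6 libraries, 295 in the 8 and 43 at the fewest. Cisplatin in wild-type kidneys had 9, against 16 with median-ratio scaling, 0 with the block or the 6 libraries, 58 with the covariate, 63 in the 8 and 0 to 41 with a library left out. The interaction had 935, against 558 with scaling, 424 with the block, 4734 with the covariate, 2438 in the 8 and 269 at the fewest, and the compared libraries alone give it no value. Median-ratio scaling changed the split of higher to lower calls from 2931 and 654 to 1389 and 1155 in FAN1KO against wild-type under cisplatin, and from 5229 and 733 to 2333 and 2047 for cisplatin in FAN1KO kidneys. Cd74 was the only member called in FAN1KO kidneys under that scaling, beside 2333 of 14972 genes called higher, so the members' share was not above that of all genes. Counting error was at most 9.33% for a member, Ciita.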
